A study of Homo sapiens with 6 samples.

Results

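Glycolysis and hypoxia response genes were followed in A549, a long-established cell line from a human lung adenocarcinoma, after overexpression of GPX3. The set holds 42 genes, chosen by symbol, of 58735 genes in the deposited tables. By role it divides into 6 genes of oxygen sensing, 15 targets of hypoxia-inducible factors (HIF) outside glycolysis, 3 glucose and lactate transporters, and 18 glycolytic enzymes and enzyme regulators. The study has 3 libraries titled OE_GPX3, whose genotype and treatment are labelled OE, and 3 libraries titled Vector, whose genotype and treatment are labelled WT. All 6 come from A549 cells. The labels used here give no oxygen level, culture time, vector, promoter or clone, and do not say whether replicates were grown separately, so p-values here reflect library-to-library spread that may be technical. All 42 genes were found in the count and FPKM tables, and 40 had enough reads to be tested. Fold changes are OE_GPX3 over Vector, and CPM are counts per 1000000 reads of a library, scaled by edgeR's TMM factors.

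In cells with oxygen, prolyl hydroxylases of the EGLN family mark the alpha subunits of HIF, and the VHL ubiquitin ligase then removes them. When oxygen falls, the alpha subunit encoded by HIF1A or EPAS1 stays, pairs with ARNT and binds short DNA elements with the core ACGTG or GCGTG. Its targets bring glucose into the cell, turn it to lactate, export the lactate, and also act on blood vessels, matrix collagen and mitochondria. Because the alpha subunits are set mainly by protein turnover, their messenger RNA does not report their activity. Lung adenocarcinoma lines such as A549 take up much glucose and release lactate also in air.

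GPX3, the overexpressed gene, averaged 1233 ± 178 CPM in OE_GPX3 and 36.4 ± 2.91 CPM in Vector (SD, n = 3 each), a 33.8-fold difference (edgeR adjusted p = 2.0e-27). Total counts ran from 15831693 to 18751815 per library, and 14458 genes were tested. At an adjusted p under 0.05, the quasi-likelihood test of edgeR (Benjamini-Hochberg) called 38 genes (0.263% of those tested), 14 higher and 24 lower. OE_GPX3 replicate 1 stood apart: over all genes its counts differed from those of its group's other libraries by a chi-square of 20.7 and 15.3 per degree of freedom, against 9.87 between those others and 7.48 to 9.62 between Vector libraries. Without it 657 genes were called, and without OE_GPX3 replicate 2 only GPX3 was. The fold change of a gene also moved with its GC content. The slope of the log2 level on GC content was 0.0334, 0.0244 and 0.153 per 10 percentage points of GC in OE_GPX3, against -0.126, -0.0946 and 0.00976 in Vector, so that every OE_GPX3 library lay above every Vector library. With a correction for that trend 4 genes were called (0.0277%). The epithelial keratin and junction markers summed to 27358 to 36644 CPM in OE_GPX3 and 24734 to 27220 in Vector, and all 6 had a log2 fold change above 0. With the GC correction 5 of 6 did, and KRT7 was at -0.10. The part of these markers in the results was not tested. Of 15 leukocyte, endothelial and fibroblast markers 13 stayed below a mean of 1 CPM. The exceptions were CD14, at 16.4 CPM in OE_GPX3 and 14.1 CPM in Vector, and COL1A1, at 4.80 and 3.91 CPM.

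Of the 40 tested members, 0 passed the adjusted threshold in edgeR, where the background is 0.263% of genes (0.0968% higher and 0.166% lower), and the smallest adjusted p was 0.0754, for SLC16A3. At an unadjusted p under 0.05 there were 9 members with higher and 2 with lower levels in OE_GPX3, against 6.83% and 7.76% of all genes tested (14.6% in either direction). That count was 5 higher and 4 lower with scaling by total counts, 10 higher and 0 lower with the GC correction, 13 higher and 5 lower without OE_GPX3 replicate 1, and 2 higher and 2 lower without Vector replicate 2. With the GC correction 4.89% of all genes were higher at that p, and 695 of 14450 genes were lower. For the other fits the share of all genes at that p is not given here, so those counts have no background beside them and are not read further. Without OE_GPX3 replicate 1, the library that stood apart, edgeR called 8 of 40 members, 6 higher and 2 lower, against 4.47% of all genes (2.71% higher and 1.75% lower). Leaving out OE_GPX3 replicate 2 or 3, or any single Vector library, called 0 of 40 members. Those fits called 1, 12, 116, 4 and 35 genes in all. Without Vector replicate 2 the smallest edgeR adjusted p of a member was 0.666. DESeq2 gave an adjusted p for 35 members and called 2 of them higher, the lactate exporter SLC16A3 and the lipase inhibitor ANGPTL4 (background 1.33%, and 0.858% higher). Limma on log2(FPKM + 1) called 0 of 37 members and 10 genes in all. All 18 glycolytic enzymes and all 3 transporters had a log2 fold change above 0 (except PFKM and PFKFB3 with total counts, and PFKFB3 and SLC2A1 with the GC correction). The HIF targets outside glycolysis were split 7 above and 6 below, and the oxygen sensing genes were 2 above and 4 below, with 47.4% of all genes above 0. Whether the role groups differ from each other was not tested. In these bulk libraries fewer expressing cells and less RNA per cell cannot be told apart.

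**Figure D1:**
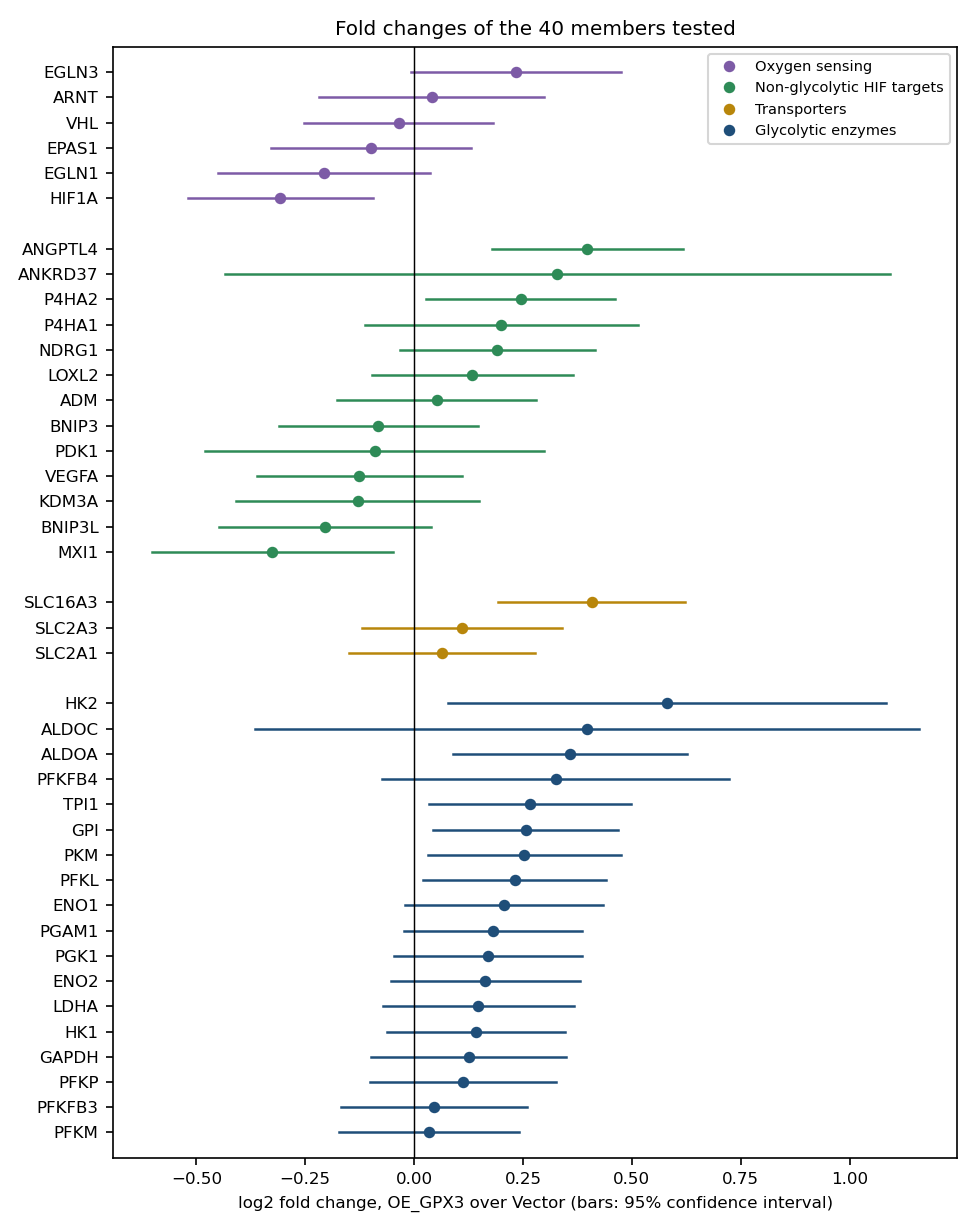
Log2 fold changes of the 40 tested members (x axis, OE_GPX3 over Vector) with 95% confidence intervals from edgeR's quasi-likelihood fit on 3 libraries per group, ordered within each role. All 18 glycolytic enzymes lie to the right of 0, from 0.03 for PFKM to 0.58 for HK2 (with total counts PFKM and PFKFB3, and with the GC correction PFKFB3, were below 0), while the oxygen sensing genes and the other HIF targets fall on both sides.

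Among the oxygen sensing genes the messenger RNA of HIF1A (ENSG00000100644, chromosome 14, 61695513 to 61748259, plus strand, hg38), which encodes the most widely used alpha subunit, was the farthest below 0 of the 6. It stood at 155, 155 and 151 CPM in OE_GPX3, against 211, 192 and 166 CPM in Vector. The OE_GPX3 libraries lay close together and below every Vector library, which was so for 9.9% of all genes tested. The mean was 153 ± 2.32 CPM in OE_GPX3 and 189.7 ± 22.3 CPM in Vector (SD, n = 3 each). The fit gave a log2 fold change of -0.31 (95% interval -0.52 to -0.09, edgeR adjusted p = 0.182). Its transcript has a GC content of 36.4%, against a median of 49.0% over all genes tested, and with the GC correction its log2 fold change was -0.11.

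EPAS1, which encodes the alpha subunit of HIF-2, was the more abundant of the pair, at 523, 359 and 443 CPM in OE_GPX3, against 482, 495 and 441 CPM in Vector. Its groups overlapped, with OE_GPX3 replicate 1 the highest of the 6 libraries and OE_GPX3 replicate 2 the lowest, and the log2 fold change was -0.10 (interval -0.33 to 0.13, edgeR adjusted p = 0.703). ARNT, the shared partner subunit, had 42.2, 30.4 and 30.3 CPM in OE_GPX3, against 33.4, 34.0 and 32.7 CPM in Vector, where OE_GPX3 replicate 1 lay above the Vector range and the other OE_GPX3 libraries below it (0.04, interval -0.22 to 0.30). VHL, the recognition subunit of the ubiquitin ligase, had 69.1, 67.2 and 62.4 CPM in OE_GPX3, against 71.6, 66.9 and 65.3 CPM in Vector, with overlapping groups and a log2 fold change of -0.04 (interval -0.25 to 0.18). The sign of the ARNT value turned with scaling by total counts, and that of VHL with the GC correction.

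The prolyl hydroxylases, which are oxygen sensors and HIF targets at once, lay on opposite sides of 0. EGLN3 had 59.0, 47.7 and 44.2 CPM in OE_GPX3, against 45.4, 40.1 and 42.9 CPM in Vector, a log2 fold change of 0.23 (95% interval -0.01 to 0.47, edgeR adjusted p = 0.357). OE_GPX3 replicate 1 was its highest library, and without it the log2 fold change was 0.10. EGLN1 averaged 78.6 ± 13.7 CPM in OE_GPX3 and 90.8 ± 12.2 CPM in Vector (SD, n = 3 each). Its log2 fold change was -0.21 (interval -0.45 to 0.04, edgeR adjusted p = 0.419). It was called lower without OE_GPX3 replicate 1, at -0.36 (edgeR adjusted p = 0.0392). Over the 6 oxygen sensing genes the median log2 fold change was -0.07, against -0.02 over all genes tested, and 0 of 6 were called.

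Of the 15 HIF targets outside glycolysis 13 were tested, with a median log2 fold change of 0.05 and 0 called. ANGPTL4 (ENSG00000167772, chromosome 19, 8363289 to 8374373, plus strand, hg38), a secreted inhibitor of lipoprotein lipase, was the highest of them. It stood at 82.1, 87.6 and 77.0 CPM in OE_GPX3, against 66.5, 58.3 and 62.5 CPM in Vector. Every OE_GPX3 library lay above every Vector library, as for 8.62% of all genes tested. This gave a log2 fold change of 0.40 (95% interval 0.18 to 0.62, edgeR adjusted p = 0.0961), and DESeq2 called it at an adjusted p of 0.0167. Its log2 fold change was 0.35 to 0.45 on leaving out each library in turn and 0.24 with the GC correction, at which it was not called (edgeR adjusted p = 0.449). Without OE_GPX3 replicate 1 it was called higher at 0.40 (edgeR adjusted p = 0.0210), and without any other single library it was not called.

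Of the collagen prolyl hydroxylases, which prepare collagen for secretion, P4HA2 also had groups that did not overlap, at 104, 93.7 and 93.2 CPM in OE_GPX3, against 87.8, 73.1 and 84.7 CPM in Vector (0.24, interval 0.03 to 0.46, edgeR adjusted p = 0.292). Its paralog P4HA1 spanned 18.3 to 30.7 CPM in OE_GPX3 and 18.2 to 23.8 CPM in Vector, and its log2 fold change of 0.20 was -0.02 without OE_GPX3 replicate 1. LOXL2, a collagen cross-linking oxidase, had 0.13 (interval -0.10 to 0.36). Its relative LOX was hardly detected, with 7, 6 and 1 reads in OE_GPX3, against 6, 4 and 1 reads in Vector, and was not tested.

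None of 6 classical secreted, stress and mitochondrial targets was called in edgeR. VEGFA, the main growth factor for blood vessels, had 64.4, 63.9 and 71.3 CPM in OE_GPX3, against 67.7, 87.0 and 62.8 CPM in Vector, and Vector replicate 2 was its highest library (-0.13, interval -0.36 to 0.11). ADM, the vasodilator peptide adrenomedullin, had 0.05 (interval -0.18 to 0.28), and the stress-induced NDRG1 had 0.19 (interval -0.03 to 0.41), both with overlapping groups. The mitophagy receptors BNIP3 and BNIP3L had -0.08 and -0.20. PDK1, the kinase that inactivates pyruvate dehydrogenase, had -0.09 at a mean of 7.86 CPM in OE_GPX3 and 8.39 CPM in Vector. These 6 genes had adjusted p values in edgeR from 0.420 to 0.856.

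MXI1, a repressor that competes with MYC for its partner MAX, was the lowest target, at 23.0, 17.1 and 17.4 CPM in OE_GPX3, against 24.9, 22.5 and 24.8 CPM in Vector. OE_GPX3 replicate 1 lay within the Vector range and the other OE_GPX3 libraries below it. The fit gave a log2 fold change of -0.33 (95% interval -0.60 to -0.05, edgeR adjusted p = 0.277). Without that library MXI1 was called lower at -0.48 (edgeR adjusted p = 0.0378). The histone demethylase KDM3A had -0.13 (interval -0.41 to 0.15). ANKRD37 was near the detection limit, with 18, 20 and 22 reads in OE_GPX3, against 14, 19 and 18 reads in Vector (0.33, interval -0.43 to 1.09). The transcriptional repressor BHLHE41 had 10, 5 and 5 reads in OE_GPX3, against 10, 6 and 16 reads in Vector, and was not tested. ANKRD37 shares 909 exon bases with UFSP2 on the other strand and LOX shares 138 with SRFBP1. BNIP3L shares 330 with PNMA2 and LOXL2 shares 120 with ENTPD4 on its own strand. How the counting treated strand was not given in the sources used here. These values are therefore uncertain.

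The transporters were led by SLC16A3 (ENSG00000141526, chromosome 17, 82228397 to 82261129, plus strand, hg38), the monocarboxylate transporter MCT4 that exports lactate. It stood at 778, 849 and 808 CPM in OE_GPX3, against 610.0, 536 and 689 CPM in Vector. The lowest OE_GPX3 library lay above the highest Vector library. The 1.33-fold difference was a log2 fold change of 0.41 (95% interval 0.19 to 0.62, edgeR adjusted p = 0.0754), the smallest adjusted p of the set. DESeq2 called it (adjusted p = 0.0117), as did edgeR without a filter on low counts (adjusted p = 0.0352, background 0.481%) and edgeR without OE_GPX3 replicate 1 (adjusted p = 0.00275). With the GC correction its log2 fold change was 0.26 (edgeR adjusted p = 0.357). Its transcript is GC-rich at 62.6%. SLC16A3 shares 482 exon bases, in a deposited gene length of 8995, with CSNK1D on the other strand, whose own log2 fold change was 0.09. CSNK1D held 5005.5 reads per library on average, 41.0% of the SLC16A3 count. How the counting treated strand was not given, so the values of SLC16A3 are uncertain. The glucose importers were flatter. SLC2A1, which encodes GLUT1, had 131, 143 and 159 CPM in OE_GPX3, against 139.8, 129 and 146 CPM in Vector, and SLC2A3, which encodes GLUT3, had 0.11 (interval -0.12 to 0.34). The groups of both overlapped, and the value of SLC2A1 (0.06, interval -0.15 to 0.28) was below 0 with the GC correction.

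**Figure D2:**
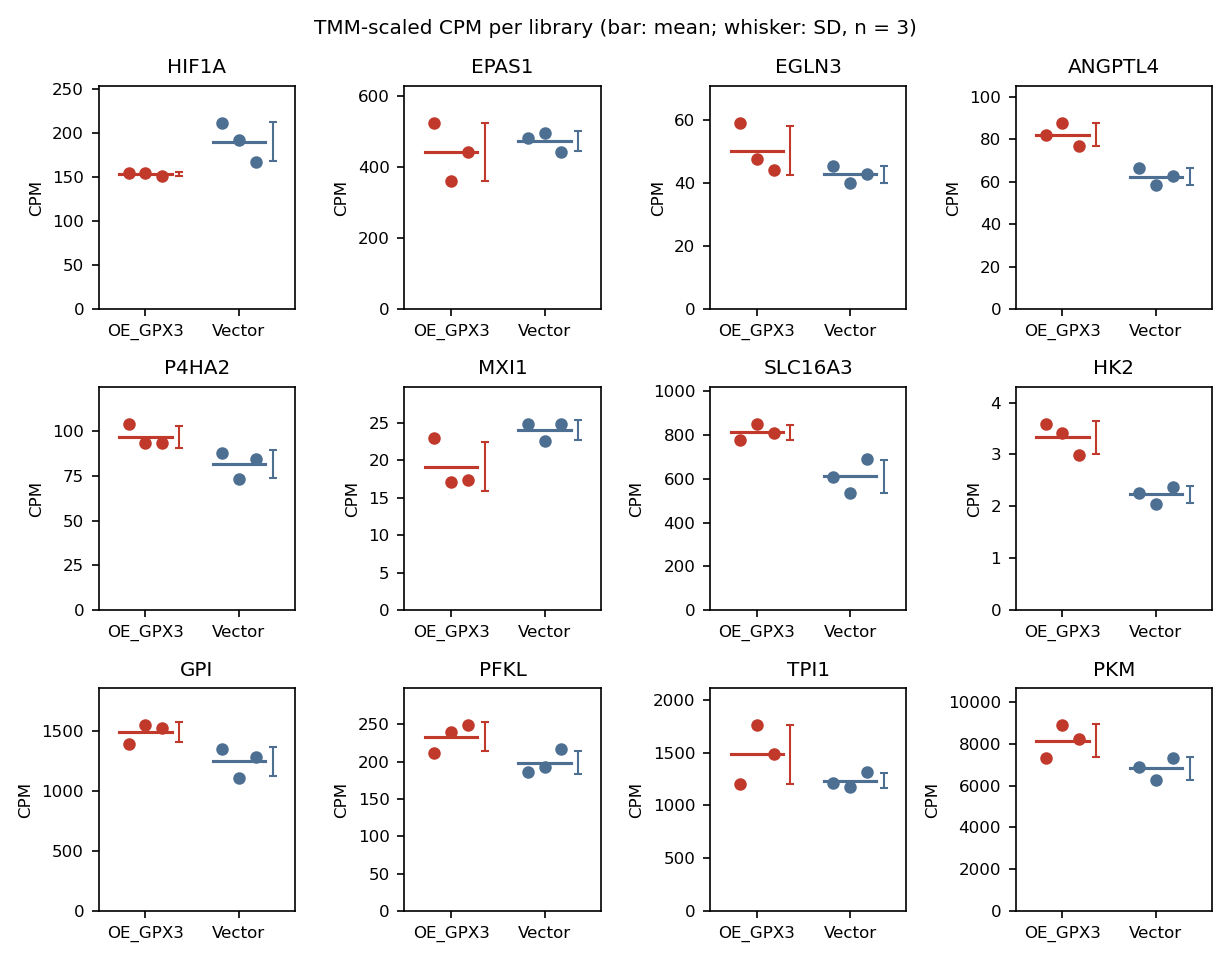
TMM-scaled CPM of 12 members in each library (y axes from 0), OE_GPX3 left and Vector right, with the group mean (bar) and SD (whisker, n = 3). HIF1A, ANGPTL4, P4HA2, SLC16A3, HK2 and GPI show groups that do not overlap, whereas in EPAS1, EGLN3, MXI1, PFKL, TPI1 and PKM at least 1 library of a group lies within the range of the other.

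The glycolytic enzymes covered a wide range of levels, and per gene length the later steps of the pathway were the most abundant. On the deposited FPKM, which divide by the gene length of the authors' table, GAPDH, which oxidises glyceraldehyde 3-phosphate, was highest at 1826 ± 246 FPKM in OE_GPX3 and 1655 ± 94.7 FPKM in Vector (SD, n = 3 each). ENO1, the enolase, and PKM, the pyruvate kinase, followed. ENO1 had 958 ± 145 FPKM in OE_GPX3 and 821 ± 61.2 FPKM in Vector. PKM had 951 ± 97.2 FPKM in OE_GPX3 and 789 ± 64.2 FPKM in Vector. TPI1, the triose phosphate isomerase, had 549.9 ± 106 FPKM in OE_GPX3 and 452 ± 28.7 FPKM in Vector, and LDHA, which makes lactate, had 309 ± 34.0 FPKM in OE_GPX3 and 276 ± 23.8 FPKM in Vector. PGK1, PGAM1 and PFKP lay between 200 and 300 FPKM in both group means. The 18 genes together took 1.68% ± 0.108 of all FPKM in OE_GPX3 and 1.53% ± 0.0449 in Vector (SD, n = 3 each), with 1.56%, 1.77% and 1.70% in the OE_GPX3 libraries and 1.52%, 1.49% and 1.57% in the Vector libraries. The value of OE_GPX3 replicate 1 thus lay within the Vector range.

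**Figure D3:**
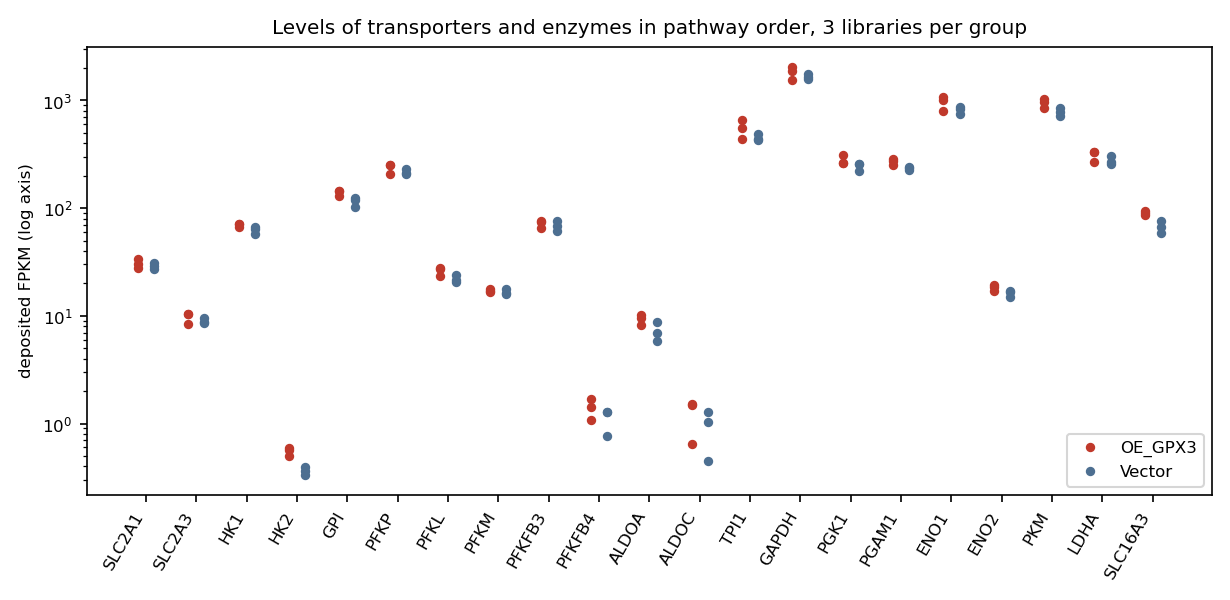
Deposited FPKM (log axis) of the glucose importers, the enzymes in pathway order and the lactate exporter SLC16A3, with 3 points per group, OE_GPX3 left of Vector at each gene. Differences between genes span from 0.364 FPKM for HK2 (Vector mean) to 1826 for GAPDH (OE_GPX3 mean), and the differences between the groups are small beside those between genes.

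Early in the pathway the hexokinases, which trap glucose in the cell, differed most in level. HKDC1, a hexokinase outside the set, had 27.8 ± 0.458 FPKM in OE_GPX3 and 26.9 ± 1.99 FPKM in Vector, with a log2 fold change of 0.03. HK1 had 69.9 ± 2.07 FPKM in OE_GPX3 and 62.6 ± 4.36 FPKM in Vector, whereas HK2, the hypoxia-inducible form, had 0.549 ± 0.0486 FPKM in OE_GPX3 and 0.364 ± 0.0278 FPKM in Vector (SD, n = 3 each). HK2 nevertheless had the largest log2 fold change of the enzymes, 0.58 (interval 0.08 to 1.08, edgeR adjusted p = 0.283), from 64, 58 and 46 reads in OE_GPX3, against 40, 40 and 39 reads in Vector. Its groups did not overlap, nor did those of HK1, with 453, 424 and 442 CPM in OE_GPX3, against 407, 368 and 419.7 CPM in Vector (0.14, interval -0.06 to 0.35). HK2 shares 7 exon bases with AC019069.1 on the other strand, which had 15.0 reads per library on average and a log2 fold change of 1.46. GPI, which turns glucose 6-phosphate into fructose 6-phosphate, had 1390.3, 1546 and 1522 CPM in OE_GPX3, against 1344, 1109.8 and 1279 CPM in Vector (0.26, interval 0.04 to 0.47, edgeR adjusted p = 0.264). All OE_GPX3 libraries were above those of Vector.

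Of the phosphofructokinases, which commit sugar to glycolysis, PFKL had 212, 239.9 and 249 CPM in OE_GPX3, against 187, 193 and 217 CPM in Vector, where the groups overlapped (0.23, interval 0.02 to 0.44, edgeR adjusted p = 0.303). With the GC correction its log2 fold change was 0.06, at a transcript GC content of 64.1%. PFKP, the most abundant form, had 0.11 (interval -0.10 to 0.33) with overlapping groups. PFKM had 124, 124 and 129 CPM in OE_GPX3, against 117, 119 and 131 CPM in Vector. Its groups overlapped, and its log2 fold change of 0.03 (interval -0.17 to 0.24) was the smallest of the 18. The bifunctional regulators PFKFB3 and PFKFB4, which set the level of the activator fructose 2,6-bisphosphate, had 0.05 (interval -0.17 to 0.26) and 0.32 (interval -0.07 to 0.72). PFKFB3 stood at 438 CPM in OE_GPX3 and 424 CPM in Vector on average, and PFKFB4 at 8.55 CPM in OE_GPX3 and 6.85 CPM in Vector. PFKM shares 628 exon bases with SENP1 on the other strand and PFKFB4 shares 289 with UCN2 on its own.

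ALDOA, the main aldolase, was listed at only 9.25 ± 1.02 FPKM in OE_GPX3 and 7.15 ± 1.46 FPKM in Vector (SD, n = 3 each), far below TPI1, the next enzyme in the pathway. It shares 1657 exon bases with AC093512.2 on the same strand, in a deposited gene length of 3916, so its counts depend on how shared reads were treated and its level is uncertain. With 32.1, 37.0 and 39.5 CPM in OE_GPX3, against 27.6, 23.0 and 34.3 CPM in Vector its groups overlapped (0.36, interval 0.09 to 0.63, edgeR adjusted p = 0.220), and AC093512.2 had -0.11. ALDOC, the aldolase of brain, had 80, 73 and 29 reads in OE_GPX3, against 68, 26 and 50 reads in Vector, with groups that overlapped widely.

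Later in the pathway TPI1 had 1199, 1759 and 1491 CPM in OE_GPX3, against 1209, 1176 and 1315 CPM in Vector. OE_GPX3 replicate 1 lay within the Vector range, and the other OE_GPX3 libraries above it (0.27, interval 0.03 to 0.50, edgeR adjusted p = 0.287). PKM had 7317, 8897 and 8215 CPM in OE_GPX3, against 6874, 6274 and 7344 CPM in Vector, with the same order (0.25, interval 0.03 to 0.48, edgeR adjusted p = 0.287). ENO1 spanned 4219.8 to 5616 CPM in OE_GPX3 and 4053 to 4654 CPM in Vector (0.21, interval -0.02 to 0.43). Without OE_GPX3 replicate 1, TPI1, ENO1, PKM and ALDOA were called higher, at log2 fold changes of 0.40, 0.32, 0.33 and 0.44, among 2.71% of genes called higher in that fit. PGAM1, the phosphoglycerate mutase, had 644, 726 and 700.3 CPM in OE_GPX3, against 627, 585 and 615 CPM in Vector, without overlap (0.18, interval -0.02 to 0.39).

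GAPDH, PGK1, ENO2 and LDHA had log2 fold changes of 0.13, 0.17, 0.16 and 0.15, each with an interval that includes 0 and overlapping groups. GAPDH, often taken as a constant reference, spanned 4658 to 6033 CPM in OE_GPX3 and 4733 to 5265 CPM in Vector. The GC correction moved these genes in both directions: the log2 fold change was 0.0052 for GAPDH and 0.09 for ENO2, but 0.29 for PGK1 and 0.26 for LDHA (edgeR adjusted p = 0.363 and 0.375). Several of these genes have processed pseudogenes, whose near-identical sequence could divert reads. The 62 listed GAPDH pseudogenes held 613 reads in all 6 libraries, 0.114% of those of GAPDH, the 6 of LDHA held 76, and the 4 of TPI1 held 1121, 0.800% of its own.

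As a group the glycolytic enzymes had a median log2 fold change of 0.19, with 18 of 18 above 0, 6 of 18 higher at an unadjusted p under 0.05 (background 6.83%) and 4 of 18 whose OE_GPX3 libraries all exceeded those of Vector (background 8.62%). With scaling by total counts 16 of 18 were above 0, since PFKM and PFKFB3 turned, and with the GC correction 17 of 18, since PFKFB3 turned, at a median of 0.17, with 50.8% of all genes above 0 in that fit. Without Vector replicate 2 the median was 0.11 and 17 of 18 were above 0. Level, base composition and the mitochondrial share of reads moved with this. Mitochondrial genes took 6.55%, 6.27% and 6.19% of reads in OE_GPX3, against 7.52%, 6.81% and 6.91% in Vector, without overlap, and the part of that difference in the result was not tested. The enzymes are abundant, with 13 of 18 at a mean of at least 100 CPM, and among the 1909 tested genes of that level 71.1% had a fold change above 0, with a median of 0.09, and 16.6% had all OE_GPX3 libraries above those of Vector. Of those 1909 genes 304 were higher at an unadjusted p under 0.05. Of the 6 enzymes higher at that p, HK2 and ALDOA lay below 100 CPM. The 13 enzymes of that level had a median of 0.17, with 13 of 13 above 0 and 3 without overlap. The median GC content was 53.8% for the enzymes, 54.1% for genes of at least 100 CPM and 49.0% for all genes tested. With the GC correction the median was 0.04 for genes of at least 100 CPM, and 67.5% of them were above 0. In that fit 174 of these 1909 genes were higher at an unadjusted p under 0.05. With the same correction 5 of the 18 enzymes (HK2, GPI, ALDOA, PGK1 and LDHA) had an unadjusted p under 0.05 and a higher level (background 4.89%).

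**Figure D4:**
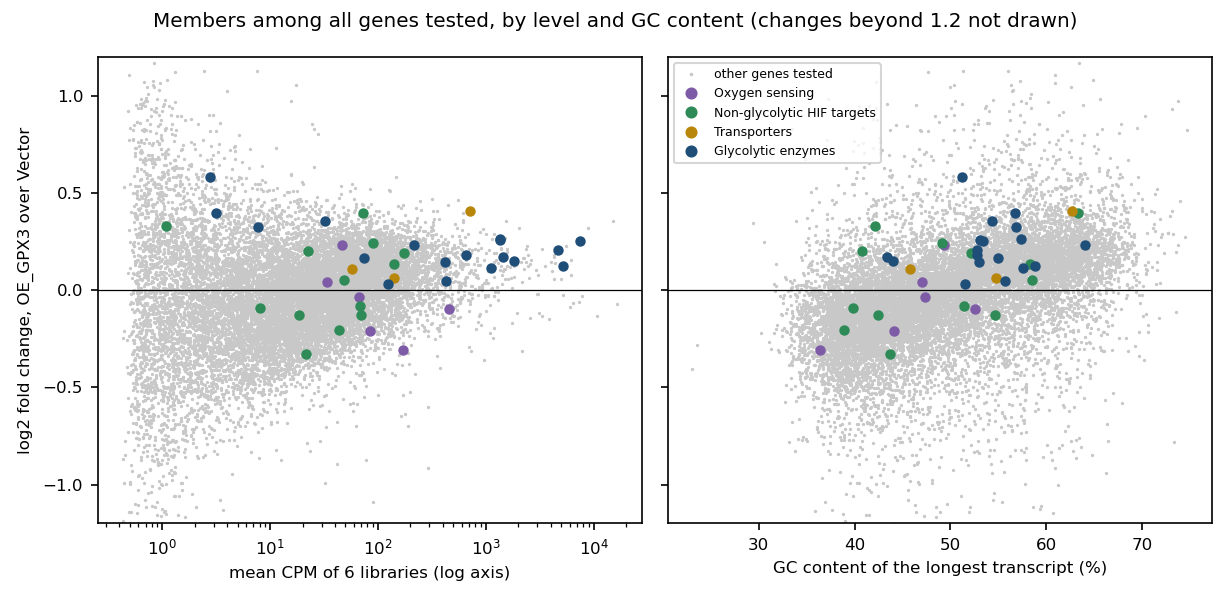
Log2 fold change (y axis, OE_GPX3 over Vector) of every tested gene against its mean CPM (left, log axis) and the GC content of its longest transcript (right), with members coloured by role. The cloud of all genes rises with GC content and, at high CPM, lies mostly above 0, with 71.1% of genes of at least 100 CPM above 0. The enzymes lie above 0 in both panels (not so for PFKM and PFKFB3 with total counts, or PFKFB3 with the GC correction), and PFKM (0.03) and PFKFB3 (0.05) are below the median of genes of that level (0.09).

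The balance between related genes was compared as shares of summed FPKM in each library, by exact permutation, two-sided, where 3 against 3 libraries cannot give a p below 0.1. Families hold members of the set only, so HKDC1 is left out of the hexokinases and ENO3 out of the enolases. HK2 took 0.815%, 0.831% and 0.695% of the hexokinase pair in OE_GPX3, against 0.572%, 0.577% and 0.586% in Vector. PFKL took 9.56%, 9.08% and 9.36% of the phosphofructokinases in OE_GPX3, against 8.40%, 8.53% and 8.89% in Vector. Both shares were higher in every OE_GPX3 library (exact permutation p = 0.1 each, the smallest possible, and 0.4 adjusted over the 8 shares). PFKP held 84.5% ± 0.811 of its family in OE_GPX3 and 84.9% ± 0.312 in Vector (SD, n = 3 each), with overlapping groups (exact permutation p = 0.7). HIF1A took 29.6%, 37.9% and 32.6% of the sum with EPAS1 in OE_GPX3, against 38.3%, 35.5% and 34.9% in Vector, which overlap (exact permutation p = 0.4). SLC2A3 of the glucose importers, ENO2 of the enolases, ALDOC of the aldolases and PFKM of the phosphofructokinases overlapped too, with exact permutation p values of 0.4 to 0.9.

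**Figure D5:**
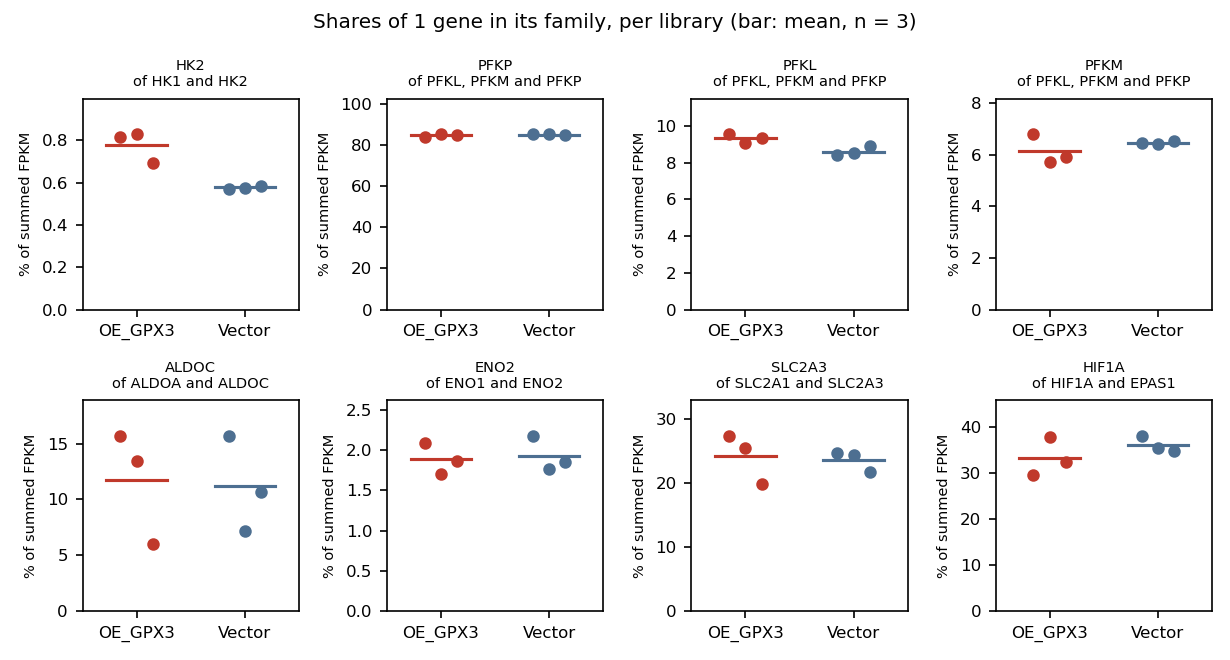
Share of 1 gene in the summed FPKM of the set's members of its family (y axes in percent, from 0) in each library, OE_GPX3 left and Vector right, with group means as bars. HKDC1 and ENO3 are not included. The HK2 share (0.695% to 0.831% in OE_GPX3, 0.572% to 0.586% in Vector) and the PFKL share do not overlap between groups, and the other 6 shares do.

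The promoters of these genes were then read for ACGTG, 1 form of the core of the HIF element. The other form, GCGTG, was not searched, so the shares below cover only part of the core. RefSeq promoters (GRCh38.p14) were matched by symbol for 36 of the 42 members, with 68 start sites, and none was matched for VHL, VEGFA, NDRG1, BNIP3L, LOXL2 and SLC2A3. The letters ACGTG were searched on both strands, where CACGT marks the reverse strand, in the 250 bases before each start. CACGTG, the site of MYC and related factors, holds both readings. The letters were present before 10 of 17 starts of the HIF targets outside glycolysis (58.8%), 15 of 39 starts of the enzymes (38.5%), 1 of 6 of the oxygen sensing genes and 1 of 6 of the transporters, against 18.5% of all 35116 promoters in the table and 22.2% of those of tested genes. Many members were chosen as known HIF targets, so these shares describe that choice. A match is a string of letters and was not tied to binding here.

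The stretches before the starts of SLC16A3 (chr17:82228792-82229031, plus strand), ANGPTL4 (chr19:8363905-8364150, plus strand) and MXI1 (chr10:110209981-110210230, plus strand) are shown because these were the transporter with the highest fold change and the targets with the highest and the lowest. Capitals mark ACGTG or CACGT, and GCGTG is left unmarked, as in MXI1.
SLC16A3: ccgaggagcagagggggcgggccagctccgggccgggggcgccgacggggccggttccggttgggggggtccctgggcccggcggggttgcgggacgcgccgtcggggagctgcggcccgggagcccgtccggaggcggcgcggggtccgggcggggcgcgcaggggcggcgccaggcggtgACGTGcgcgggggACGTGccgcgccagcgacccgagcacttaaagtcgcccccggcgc
ANGPTL4: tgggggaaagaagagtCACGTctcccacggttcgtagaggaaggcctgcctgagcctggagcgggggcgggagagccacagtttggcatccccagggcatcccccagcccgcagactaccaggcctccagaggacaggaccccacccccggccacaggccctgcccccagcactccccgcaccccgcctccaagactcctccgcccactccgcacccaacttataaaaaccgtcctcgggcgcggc
MXI1: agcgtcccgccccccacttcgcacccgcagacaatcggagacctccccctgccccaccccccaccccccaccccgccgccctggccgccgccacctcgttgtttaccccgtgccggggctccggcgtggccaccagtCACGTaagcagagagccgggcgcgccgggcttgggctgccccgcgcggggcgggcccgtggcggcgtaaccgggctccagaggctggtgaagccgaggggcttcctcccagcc

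In SLC16A3 the letters stand 68 and 55 bases before its second listed start, both in the forward direction. ANGPTL4 has 1 reverse match 234 bases before its start, and MXI1, with a log2 fold change below 0, has 1 reverse match 113 bases before its second listed start. The other listed starts of SLC16A3 and MXI1 hold no match, so the start with a match was the one printed.

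Short windows of 30 bases around the matches compare 4 enzymes that hold the letters, PGK1 (chrX:78104042-78104071, plus strand), LDHA (chr11:18394469-18394498, plus strand), ENO2 (chr12:6914449-6914478, plus strand) and GPI (chr19:34364817-34364846, plus strand), with the collagen hydroxylase P4HA1 (chr10:73096936-73096965, minus strand) and with CA9 (chr9:35673897-35673926, plus strand), the one further HIF target called by edgeR on all 6 libraries.
PGK1: ccggACGTGacaaacggaagccgCACGTct
LDHA: cgactcaCACGTGggttcccgCACGTccgc
ENO2: cacccgcgctcgtACGTGcgcctccgccgg
GPI: aacactgcctgtaACGTGgaaggtgttcga
P4HA1: gtgtgatcgagctCACGTagcgagggctgc
CA9: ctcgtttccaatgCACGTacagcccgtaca

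PGK1 and LDHA carry paired matches, and in LDHA the upstream one is part of CACGTG. The genes printed here had unlike values: the log2 fold change was 0.83 for CA9, 0.41 for SLC16A3, 0.40 for ANGPTL4, 0.26 for GPI, 0.20 for P4HA1, 0.17 for PGK1, 0.16 for ENO2, 0.15 for LDHA and -0.33 for MXI1. They are a selection, since 22 of the 36 matched members hold the letters. PKM, PFKL and ENO1, with 0.25, 0.23 and 0.21, have no ACGTG in the windows searched, nor do HK1, EPAS1 and HIF1A, with 0.14, -0.10 and -0.31. Whether the letters go with the fold change was not tested.

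Genes around the set were taken from further lists of the same pathways. CA9, the carbonic anhydrase that is a standard marker of hypoxia, rose and was the 1 gene called by edgeR among 26 tested further HIF targets. It stood at 32.5, 37.0 and 29.4 CPM in OE_GPX3, against 18.7, 16.5 and 20.6 CPM in Vector, without overlap. The fit gave a log2 fold change of 0.83 (95% interval 0.56 to 1.09, edgeR adjusted p = 0.00168), and with the GC correction the log2 fold change was 0.70 (edgeR adjusted p = 0.0478). CA9 shares 643 exon bases, in a deposited gene length of 1670, with ARHGEF39 on the other strand, which had 0.30. ARHGEF39 held 324 reads per library on average, 73.3% of the CA9 count. How the counting treated strand was not given, so the values of CA9 are uncertain. PLOD1, a collagen lysyl hydroxylase, and HILPDA, a lipid droplet protein, had 0.36 and 0.40 (edgeR adjusted p = 0.118 for both), and DESeq2 called both. Of the 26, 15 were above 0 (background 47.4%), 7 had a higher level at an unadjusted p under 0.05 (background 6.83%) and 0 a lower one (background 7.76%), and the median was 0.03. With the GC correction the median of these 26 was 0.16, and 17 were above 0 (background 50.8%). In that fit 11 were higher at an unadjusted p under 0.05 (background 4.89%) and 2 were lower (695 of 14450 genes).

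Further glycolysis genes were mostly too low to test. Of 20 listed 7 were tested, 3 above and 4 below 0, with a median of -0.24, 0 called, and 3 lower at an unadjusted p under 0.05 (background 7.76%). LDHB, the lactate dehydrogenase subunit that favours lactate use, stood at 28.6, 33.0 and 30.8 CPM in OE_GPX3, against 40.8, 40.8 and 35.5 CPM in Vector. Its groups did not overlap (-0.34, interval -0.58 to -0.10, edgeR adjusted p = 0.191), the opposite sign to LDHA. LDHB shares 997 exon bases with AC010197.2 on its own strand, which had 0.167 reads per library on average. The treatment of shared reads was not given, so the level of LDHB is uncertain. TIGAR, a phosphatase that lowers fructose 2,6-bisphosphate and a target of p53, had 1.18, 0.590 and 0.907 CPM in OE_GPX3, against 1.75, 1.49 and 1.65 CPM in Vector (-0.86, edgeR adjusted p = 0.277). PFKFB2, a relative of PFKFB3, had -0.40 (edgeR adjusted p = 0.301).

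The neighbouring pathways held 0 called genes. Of 15 genes of pyruvate and lactate fate 7 were above 0, with BSG, the chaperone of SLC16A3 at the membrane, at 0.24 (interval 0.03 to 0.45, edgeR adjusted p = 0.284) and the pyruvate dehydrogenase phosphatases PDP2 and PDP1 at -0.31 and -0.31. Of 13 glycogen and gluconeogenesis genes 7 were above 0, with the glycogen synthase GYS1 at 0.30 (interval 0.09 to 0.51, edgeR adjusted p = 0.199), the branching enzyme GBE1 at -0.23 and PGM1 at 0.18. Of 11 further oxygen sensing genes 7 were above 0, with ELOB and RBX1, subunits of the VHL ligase, at 0.23 and 0.23 and the coactivator CREBBP at -0.22. At an unadjusted p under 0.05 in edgeR each of these 3 lists had 1 gene, higher in OE_GPX3, which is near the background of 6.83%.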

How the data were processed

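The authors deposited whole-number counts per gene for 6 libraries, and FPKM that equal the count per gene length and a library constant. The constant lies -4.52% to 4.90% from the total count, so the deposited FPKM carry a further scaling of unstated method. The build was hg38, per the submitters' processing notes; aligner, counter and strand use were not given in the sources used here. All 58735 genes have their GENCODE release 29 position. The labels' protocol describes small RNA libraries, whereas the deposited counts hold many reads of long protein-coding genes. PKM, for example, had 120289 to 150914 reads per library. Which protocol was used could not be told from the sources used here. The members and lists were chosen with earlier results of these data known. The main fit used edgeR 4.0.16 in R 4.3.3: filterByExpr (minimum count 10, total 15), TMM, robust quasi-likelihood test without a replicate block, Benjamini-Hochberg adjustment over all 14458 genes. The biological coefficient of variation was 0.110. Standard errors and 95% intervals come from the F statistic. DESeq2 1.42.0 and limma 3.58.1 on log2(FPKM + 1), for a mean FPKM of at least 1, were alternatives, and that log2(FPKM + 1) scale shrinks the fold changes of low genes. GC content is that of the longest GENCODE transcript, and its trend in each library was removed by lowess (span 0.3, 14450 genes). Scripts were tested on simulated data. Values of single libraries were given for HIF1A, EPAS1, ARNT, VHL, members with an unadjusted p under 0.05 or called in any alternative on 6 libraries, the extremes of each role, and for others chosen after their values were seen. The 3 genes with the smallest p were named in each further list. No replicates were alike within counting noise. Promoters are RefSeq's, GRCh38.p14.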

Additional observations from a re-analysis of the deposited data

How the results depend on the processing

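The count of called genes, 38 (14 higher and 24 lower), was 115 with DESeq2 (74 and 41), 68 with scaling by total counts (13 and 55), 129 without a filter on low counts (51 and 78), 10 and 11 with limma on log2(FPKM + 1) and log2(FPKM + 0.1), 4 with the GC correction, and 1 to 657 on leaving out each library in turn (657, 1 and 12 without OE_GPX3 replicates 1, 2 and 3, and 116, 4 and 35 without Vector replicates 1, 2 and 3). A replicate block gave 231. Deviations of same-numbered libraries correlated at 0.192, 0.0104 and 0.114, and those of other pairings at -0.151 to 0.0493. OE_GPX3 replicate 2 correlated best with Vector replicate 3 (0.0493). The labels do not say that the numbers pair libraries, so the main fit had no block. These correlations do not settle whether replicates share an effect, which was not tested. The block gave 12 members higher and 4 lower at an unadjusted p under 0.05, and the share of all genes was not taken for that fit. With the block ANGPTL4 and SLC16A3 were called (edgeR adjusted p = 0.0343 and 0.0365), among 231 of 14458 genes (141 higher and 90 lower). The block with GC correction called 0 members and 49 of 14450 genes (18 higher and 31 lower). The median log2 fold change of the transporters, 0.11, was 0.050 with total counts, 0.19 with the GC correction and 0.19 with the block and GC correction, and 0.083 to 0.22 without single libraries. On leaving out a library the median of the enzymes was 0.11 to 0.24, that of the other HIF targets -0.023 to 0.13 and that of the oxygen sensing genes -0.19 to 0.0010, and these 3 medians moved by less than the spread between replicates under the 10 other alternatives, though that of the other HIF targets was -0.0090 with total counts.

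Under those 10 alternatives 9 of 40 members changed sign, all near 0. With total counts ARNT was -0.016, ADM -0.0090, PFKM -0.025 and PFKFB3 -0.012. With the GC correction, and with the block added, VHL was 0.0223 and 0.0222, ADM -0.065 and -0.062, KDM3A 0.0018 and 0.0022, PDK1 0.074 and 0.068, SLC2A1 -0.0068 and -0.0079, and PFKFB3 -0.038 and -0.035; GAPDH was -0.00080 with both. Without single libraries the range crossed 0 for EPAS1 (-0.24 to 0.039), ARNT (-0.14 to 0.13), VHL (-0.066 to 0.017), VEGFA (-0.21 to 0.028), BNIP3 (-0.14 to 0.016), LOXL2 (-0.010 to 0.25), P4HA1 (-0.023 to 0.37), PDK1 (-0.27 to 0.11) and PFKFB3 (-0.027 to 0.12). So did the differences in share, in percentage points, of PFKP (-0.745 to 0.0454), ALDOC (-1.45 to 3.43), ENO2 (-0.150 to 0.0790) and SLC2A3 (-0.931 to 2.84). The causes were not tested. Depth limits HK2, ALDOC, PFKFB4 and ANKRD37, which had few reads and wide intervals.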
